A study of Mus musculus with 40 samples.

Results

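*Pax1*, *Pax3*, *Pax4*, *Pax6*, *Pax7* and *Pax9* are the paired box genes that lie outside the midbrain-hindbrain group formed by *Pax2*, *Pax5* and *Pax8*. They were chosen by family name, not by any value in these data, and make up 6 of 55450 annotated mouse genes, 21951 of which are protein-coding. Their chromatin was described in cultured oligodendrocyte precursor cells (OPCs), the dividing cells that give rise to the myelin-forming oligodendrocytes of the brain. ChIP-seq, in which an antibody pulls down chromatin with a given histone modification and its DNA is sequenced, had been done for H3K4me3, a mark of active or poised promoters, and for H3K27me3, the mark laid down by Polycomb repressive complex 2.

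The cultures came from AMGFAP-Cre;K27M litters (hGFAP-Cre in the study's methods) at postnatal days 5 to 7. In K27M animals a human GFAP promoter drives Cre in neural stem and progenitor cells, and Cre then switches on H3.3 K27M at its native *H3-3a* gene. H3.3 K27M is a histone mutation of diffuse midline glioma that inhibits Polycomb repressive complex 2. Control animals were littermates, whose own alleles the labels do not give. Brainstem and dorsal telencephalon, called cortex in the sample titles, were pooled by region and genotype, so a culture holds cells of several pups. Cells were purified on an antibody against the OPC surface receptor PDGFRα and kept in proliferation medium, with no differentiation step. There were 2 control and 2 K27M cultures of the brainstem (numbers 59 and 61) and 3 control and 3 K27M cultures of the telencephalon (59, 60 and 61), with 1 library of each mark per culture, 20 in all. A K27M and a control culture of the same region and number form a matched pair, which gave 5 pairs.

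Pax proteins are transcription factors that bind DNA through a paired domain and set up the identity of embryonic territories. *Pax1* and *Pax9* act in the sclerotome and the pharyngeal pouches, *Pax3* and *Pax7* in the dorsal neural tube, neural crest and skeletal muscle precursors, *Pax6* in the eye, the cortical progenitor zone and the ventral neural tube, and *Pax4* with *Pax6* in the endocrine pancreas. Developmental regulators of this kind commonly carry broad H3K27me3 domains in cells that do not use them. A promoter with both marks is called bivalent and is usually read as silent but poised. In a bulk culture, both marks on the same chromatin and each mark in a different share of the cells cannot be told apart.

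The values below are the percent of a gene's promoter windows covered by peaks. A window took in 2000 bp before and 1000 bp after each annotated transcript start, and overlapping windows of a gene were merged. Coverage of the gene body, from the first to the last annotated base, was computed in the same way. Fold enrichment is the authors' ratio of ChIP to input at a peak. It is relative to the library's own input and is not an amount of the mark. Where no peak was called, weaker signal may still be present. K27M and control were compared over the 5 pairs by flipping the signs of the pair differences in all 32 ways, a two-sided exact permutation test that cannot give a p under 0.0625. The regions were compared by a two-sided exact permutation test of 2 against 3 libraries, which cannot give a p under 0.1. No comparison here could therefore reach 0.05, and differences are given by size and by whether the libraries overlap.

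The H3K27me3 lists held 12715 to 64808 peaks in the controls and 4739 to 15753 in K27M, with fewer in K27M in 5 of 5 pairs. This difference moves with every K27M comparison of H3K27me3 below, and results are therefore also given with an equal number of peaks per library where the value moved. The H3K4me3 lists held 20961 to 31200 peaks. The median fold enrichment of H3K4me3 peaks was 3.57 and 4.98 in control and K27M telencephalon culture 59, against 6.55 to 13.8 in the other libraries. An absent H3K4me3 peak in culture 59 of the telencephalon therefore rests on a weaker library. The highest medians were 13.8 and 10.1 in telencephalon controls 60 and 61 and 9.53 in brainstem control 59. Their matched K27M libraries had 9.26, 7.92 and 6.55. Brainstem culture 61 went the other way, with 7.03 in control and 8.78 in K27M, as did telencephalon culture 59. All 8 OPC markers examined carried an H3K4me3 promoter peak in all 10 libraries, and their mean covered share was 53.1% to 75.6%. None of 5 microglial markers did so, with a mean covered share of 0% to 2.72%. Of the other marker lists, 5 of 6 neuronal, 2 of 5 endothelial, 2 of 5 astrocyte and 3 of 6 neural crest and muscle genes carried H3K4me3 in all 10 libraries, and the part of other cells in the results was not tested.

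Among the 6 genes, 4 (*Pax1*, *Pax9*, *Pax7* and *Pax6*) had an H3K27me3 promoter peak in all 10 libraries, against 5.79% of protein-coding genes. Only *Pax6* also had an H3K4me3 promoter peak in all 10, whereas 58% of protein-coding genes did. H3K27me3 covered the whole promoter of *Pax7* and *Pax9* in all 10 libraries and that of *Pax1* in 9 of 10. *Pax3* had this coverage in all 6 telencephalon libraries but in only 1 of 4 from the brainstem. *Pax4* and *Pax6* were covered in part, and to very different extents between libraries.

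**Figure D1:**
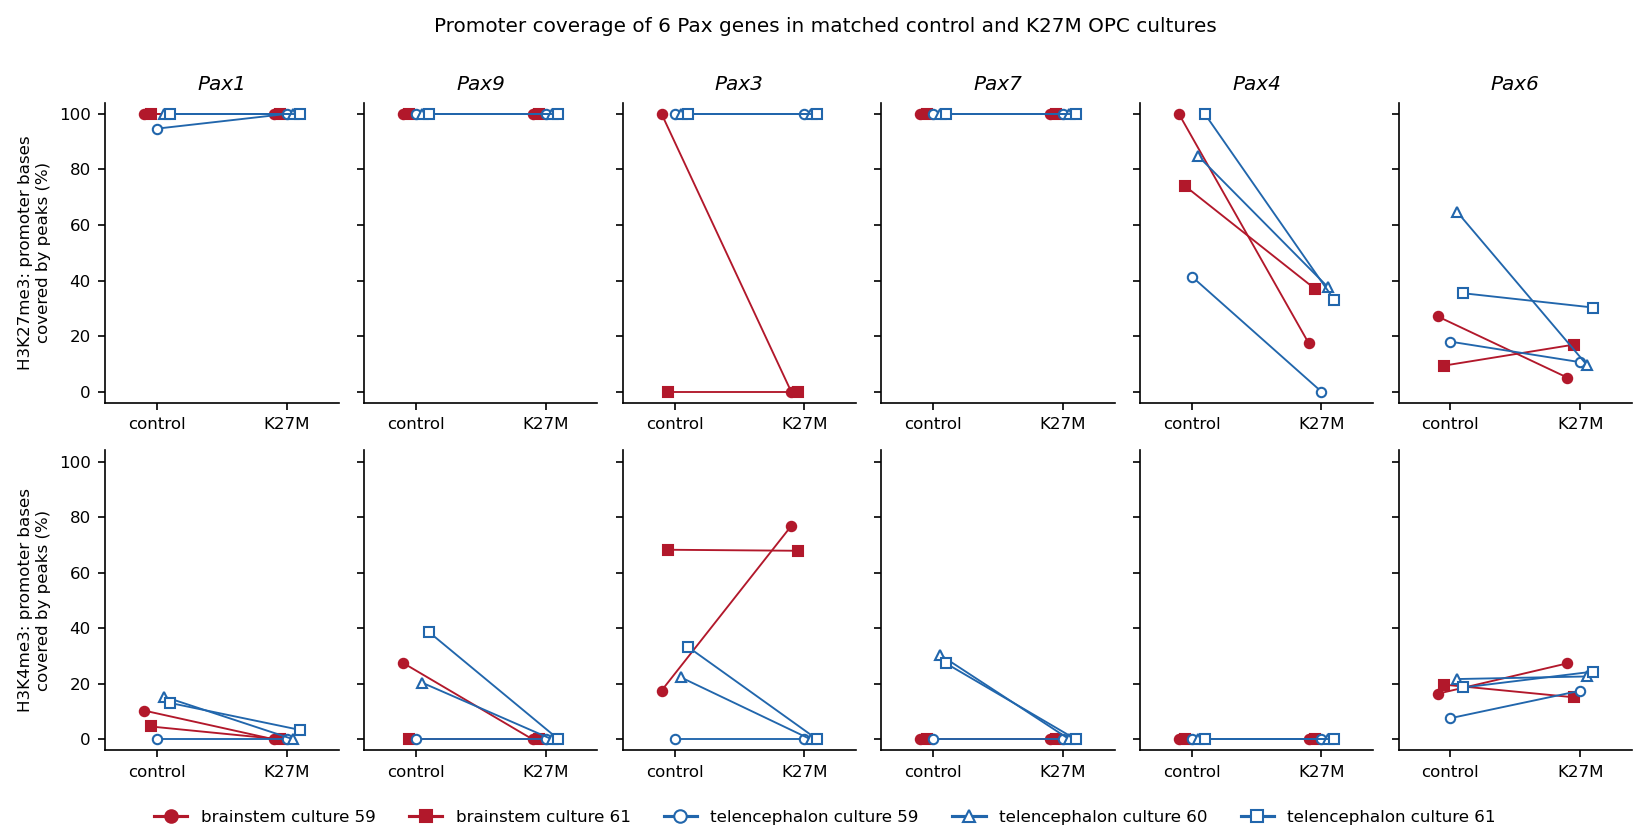
Percent of the promoter windows covered by H3K27me3 peaks (top) and H3K4me3 peaks (bottom) for each of the 6 Pax genes, with 1 point per culture and a line from each control to its matched K27M culture (brainstem red, telencephalon blue). H3K27me3 sits at or near 100% for *Pax1*, *Pax7* and *Pax9* in all groups, *Pax3* separates the regions in K27M, and *Pax4* lies lower in K27M than in its matched control in 5 of 5 pairs.

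*Pax1* (ENSMUSG00000037034.16, chr2:147361925-147393295 of mm10, plus strand) and *Pax9* (ENSMUSG00000001497.18, chr12:56691767-56712822, plus strand) are close relatives that pattern the vertebral column and the pharyngeal organs. Both were under broad H3K27me3 domains in every library. The 250 bases upstream of a RefSeq start are shown for each, as GRCm38 sequence with CpG dinucleotides in capitals, because H3K27me3 covered these bases in all 10 libraries while H3K4me3 reached them in few (3 libraries for *Pax1* and 2 for *Pax9*). For *Pax1* the stretch is chr2:147364744-147364993 on the plus strand, and for *Pax9* it is chr12:56695221-56695470 on the plus strand.
Pax1 promoter: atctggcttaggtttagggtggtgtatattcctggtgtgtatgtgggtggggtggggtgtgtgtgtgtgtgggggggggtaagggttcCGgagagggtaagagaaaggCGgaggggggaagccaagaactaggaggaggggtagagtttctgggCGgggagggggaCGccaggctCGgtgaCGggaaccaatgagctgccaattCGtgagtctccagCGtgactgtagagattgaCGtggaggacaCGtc
Pax9 promoter: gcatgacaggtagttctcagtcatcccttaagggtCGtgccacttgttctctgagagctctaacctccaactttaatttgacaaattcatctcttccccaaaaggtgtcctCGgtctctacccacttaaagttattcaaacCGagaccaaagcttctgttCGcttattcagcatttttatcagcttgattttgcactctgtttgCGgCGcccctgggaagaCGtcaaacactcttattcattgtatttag
The *Pax1* stretch holds 10 CpG and the *Pax9* stretch 7, and 37.8% and 46.3% of the 32841 promoters of the RefSeq table hold at least as many (median 6).

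The *Pax1* domain had nearly the same ends in most libraries. Its upstream end lay at a median of -12.1 kb from the most upstream start of a protein-coding transcript, from which all distances here are counted, and 8 of 10 libraries ended within 100 bp of that position. Its downstream end lay at a median of 20.8 kb, and 6 of 10 libraries ended within 100 bp of it. The longest *Pax1* peak measured 18990 to 33089 bp, the shortest being that of telencephalon control 59, where the domain broke off at 6.88 kb. The *Pax9* domain was 33375 to 53242 bp long, and its ends varied more between libraries. None of the 10 libraries ended within 100 bp of the *Pax9* median on either side.

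The promoters stayed covered in K27M, while the cover of the *Pax1* gene body was lower. H3K27me3 covered 96.0% and 98.1% of the *Pax1* gene body in the brainstem controls (cultures 59 and 61) and 69.6% and 74.2% in brainstem K27M. It covered 88.0%, 94.1% and 98% in the telencephalon controls (59, 60 and 61) and 65.5%, 66.1% and 65.4% in telencephalon K27M. Every K27M value lay below every control value. The mean difference was -26.7 percentage points (SD 3.94 over 5 pairs, exact permutation p = 0.0625), and it was -15.2 with an equal number of peaks per library. *Pax9*, a shorter gene inside a longer domain, was covered over 98% to 100% of its body in all 10 libraries.

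The same domains stood higher over input in K27M. The strongest *Pax1* promoter peak had a fold enrichment of 9.32 and 10.2 in the brainstem controls and 24.5 and 31.6 in the K27M brainstem. In the telencephalon it was 5.10, 14.6 and 10.5 in the controls and 9.91, 22.5 and 24.6 in K27M. *Pax9* gave 8.49 and 9.12 against 22.3 and 30.9 in the brainstem, and 5.99, 13.7 and 9.16 against 10.2, 23.3 and 25.9 in the telencephalon. Each K27M library was above its matched control for both genes. Among the 1272 protein-coding genes with an H3K27me3 promoter peak in all 10 libraries, 42.2% showed this order in 5 of 5 pairs, as did 3 of the 4 Pax genes in that set (*Pax1*, *Pax9* and *Pax7*). This count was made after the values were seen. The ratio of K27M to control was 1.54 to 3.10 for *Pax1* and 1.70 to 3.38 for *Pax9*, and the medians over the 1272 genes in the 5 pairs ran from 0.973 to 1.72. A higher ratio to input within a library is not a larger amount of H3K27me3, and the spike-in chromatin was not used here.

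**Figure D2:**
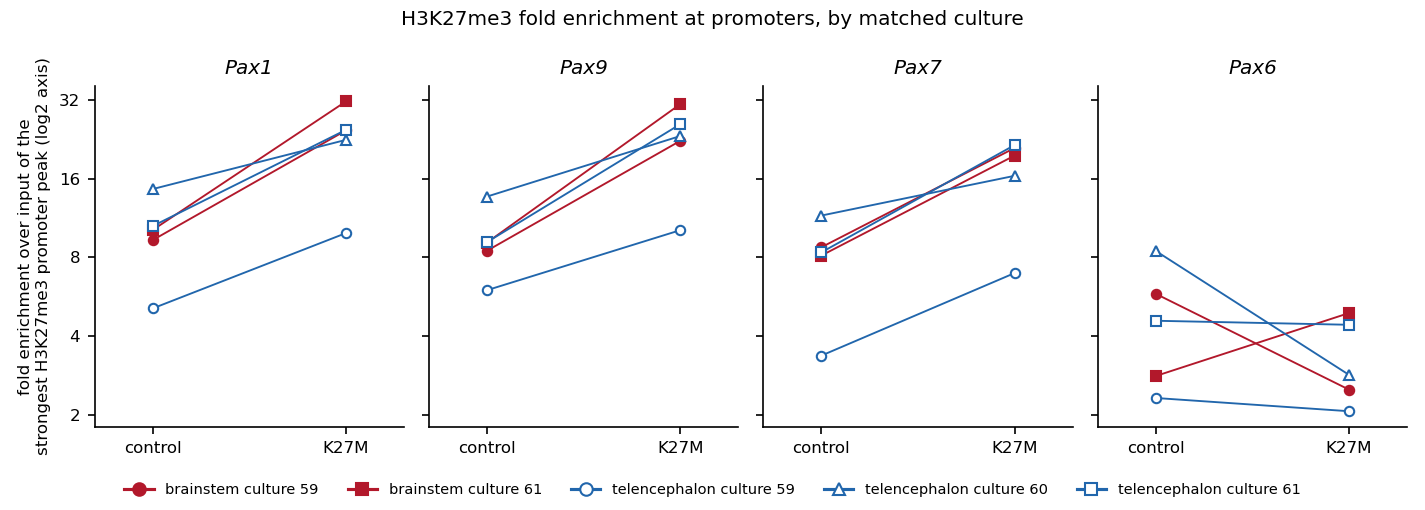
Fold enrichment over input of the strongest H3K27me3 promoter peak (log axis) in each control culture and its matched K27M culture, joined by a line (brainstem red, telencephalon blue), for *Pax1*, *Pax9*, *Pax7* and *Pax6*. The lines go up in 5 of 5 pairs for the first 3 genes, and in 1 of 5 for *Pax6*.

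H3K4me3 at these promoters was found mainly in controls. At *Pax1* it covered 10.3% and 4.61% of the promoter windows in the brainstem controls and 0% in both brainstem K27M libraries, then 0%, 15.4% and 13.1% in the telencephalon controls and 0%, 0% and 3.39% in telencephalon K27M. These bases came from a single site, chr2:147364609-147366116, at an internal start of the gene. The mean difference was -8.00 percentage points (SD 5.88, exact permutation p = 0.125), and 4 of 5 pairs were lower in K27M. At *Pax9*, H3K4me3 covered 27.5% and 0% in the brainstem controls, 0%, 20.3% and 38.6% in the telencephalon controls and 0% in all 5 K27M libraries (mean difference -17.3, SD 17.1, exact permutation p = 0.25). The libraries with this *Pax9* peak were those with the highest median fold enrichment of H3K4me3 peaks. Whether the strength of the libraries had a part in these values was not tested. A further H3K4me3 peak of 7 libraries lay upstream of *Pax9* at chr12:56680919-56682265 (-10.8 to -9.50 kb), away from any annotated gene.

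*Pax7* (ENSMUSG00000028736.13, chr4:139737062-139833528, minus strand), a regulator of dorsal neural tube cells and of muscle stem cells, resembled *Pax1* and *Pax9* at its promoter. H3K27me3 covered 100% of the promoter windows in all 10 libraries. Across the gene body it reached 78.2% and 41.1% in the brainstem controls, 32.9% and 35.3% in the K27M brainstem, 34.4%, 75.8% and 82.9% in the telencephalon controls, and 32.1%, 45.2% and 36.8% in telencephalon K27M. K27M was lower in 5 of 5 pairs, but the groups overlapped: telencephalon control 59 and brainstem control 61 lay within the K27M range. The mean difference was -26.0 percentage points (SD 21.0, exact permutation p = 0.0625), and -11.2 (exact permutation p = 0.25) with an equal number of peaks per library.

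The strongest *Pax7* promoter peak also stood higher over input in K27M. Its fold enrichment was 8.75 and 8.14 in the brainstem controls against 21.0 and 19.6 in K27M, and 3.37, 11.6 and 8.37 in the telencephalon controls against 6.97, 16.4 and 21.5 in K27M. The ratio of K27M to control ran from 1.42 to 2.57. H3K4me3 reached the promoter windows only in telencephalon controls 60 and 61, over 30.5% and 27.3%, and in no brainstem or K27M library (mean difference -11.6, SD 15.9, exact permutation p = 0.5). The mean difference was -6.82 without the telencephalon pair 60 and -7.63 without the telencephalon pair 61. Telencephalon controls 60 and 61 also had the highest median fold enrichment of H3K4me3 peaks, and the part of this was not tested. Inside the gene, H3K4me3 peaks recurred away from the annotated starts, the most frequent at chr4:139821090-139822581, 10.9 to 12.4 kb downstream of the first start, in 5 libraries. For *Pax1*, *Pax9* and *Pax7*, fewer K27M than control libraries had an H3K4me3 promoter peak, which was true of 20.8% of the 1272 genes with H3K27me3 in all 10 libraries. This count too was made after the values were seen.

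**Figure D3:**
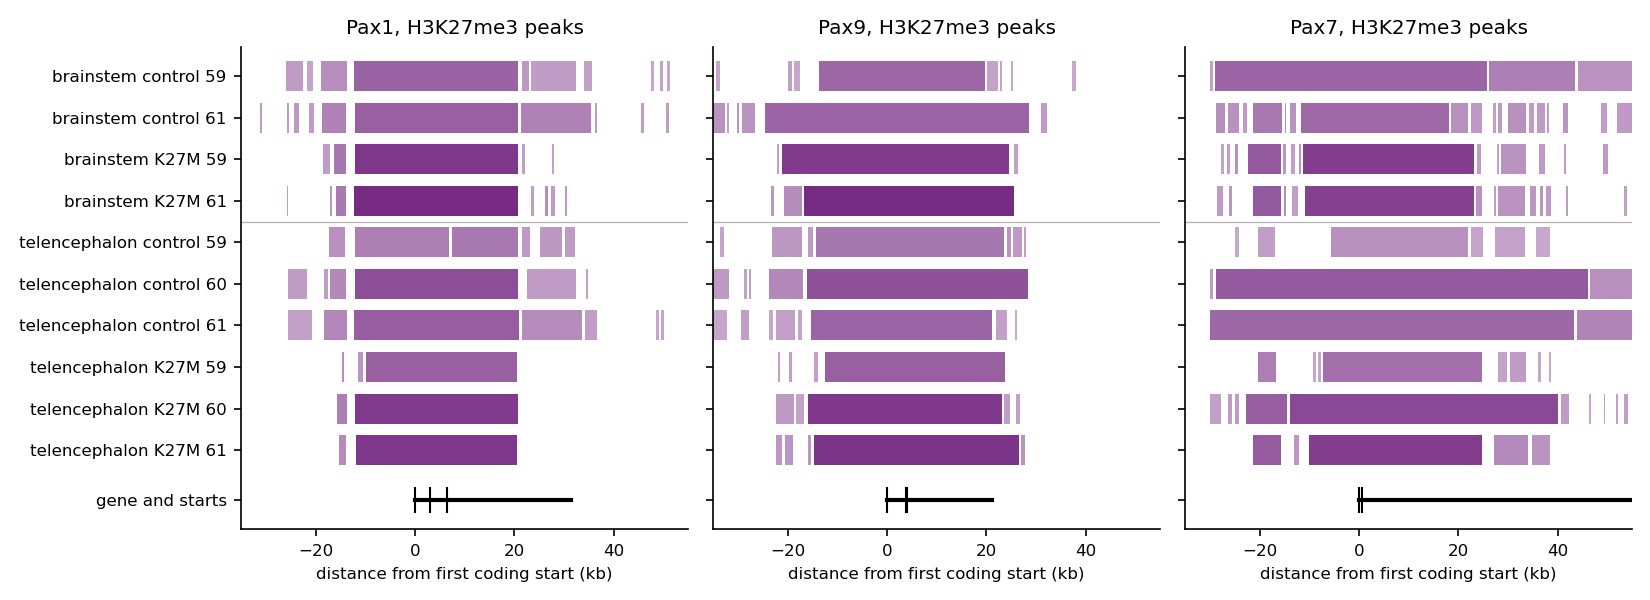
H3K27me3 peaks of each of the 10 libraries around *Pax1*, *Pax9* and *Pax7*, as bars along the distance in kb from the most upstream start of a protein-coding transcript, darker for a higher fold enrichment. The *Pax1* domain ends at nearly the same positions in most libraries, whereas the longest *Pax7* peak ends 46.2 and 43.4 kb into the gene in telencephalon controls 60 and 61, 40.1 kb in telencephalon K27M 60 and 18.1 to 25.8 kb in the other 7 libraries.

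*Pax3* (ENSMUSG00000004872.15, chr1:78101267-78197134, minus strand), which acts in dorsal neural tube and neural crest, was the member whose marks differed most between regions. In the telencephalon, H3K27me3 covered 100% of its promoter windows in 3 of 3 controls and 3 of 3 K27M cultures. In the brainstem it covered 100% in control 59 and 0% in control 61 and in both K27M cultures. H3K4me3 ran the other way. It covered 17.5% and 68.2% in the brainstem controls, 76.8% and 67.9% in the K27M brainstem, 0%, 22.3% and 33.4% in the telencephalon controls and 0% in all 3 telencephalon K27M cultures.

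In K27M the regions did not overlap for either mark. The telencephalon was higher by 100 percentage points for H3K27me3 and lower by 72.3 for H3K4me3 (exact permutation p = 0.1 for both). Of the genes tested, 0.587% had every telencephalon K27M library above every brainstem K27M library for H3K27me3, and 2.58% had every brainstem K27M library above every telencephalon one for H3K4me3. *Pax3* was the only one of the 6 in each of these sets. In the controls the libraries overlapped, and the telencephalon minus brainstem difference was 50.0 percentage points for H3K27me3 (exact permutation p = 0.4) and -24.3 for H3K4me3 (exact permutation p = 0.5). The overlap came from brainstem control 59. Without culture 59 of the brainstem the differences were 100 and -49.7 percentage points, with 1 brainstem control left and no test.

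Brainstem control 59 carried an H3K27me3 peak of 102383 bp over *Pax3*, the eighth longest of its 54227 peaks. The 6 telencephalon libraries carried peaks of 88242 to 124928 bp there. Brainstem control 61 had 3 peaks of 600 to 1059 bp within the gene, with a fold enrichment of at most 2.99, and the brainstem K27M cultures had none. These 3 libraries had a short H3K27me3 peak upstream, from -16.8 to -12.4 kb in control 61, -16.6 to -12.6 kb in K27M 59 and -17.8 to -11.5 kb in K27M 61. At the gene body, H3K27me3 covered 83% and 2.62% in the brainstem controls, 0% in both brainstem K27M cultures, 85.7%, 90.9% and 96.1% in the telencephalon controls and 67.1%, 71.8% and 69.8% in telencephalon K27M. Here each telencephalon control lay above both brainstem controls (difference 48.1 percentage points, exact permutation p = 0.1), a pattern found at 1.33% of genes with a gene body peak and at no other Pax gene of the 6. With 1 library left out the difference ran from 7.92, without brainstem control 61, to 88.3, without brainstem control 59. K27M was lower than control in 5 of 5 pairs, by a mean of 29.9 percentage points (SD 30.9, exact permutation p = 0.0625). Without the brainstem pair 59, whose difference was the largest of the 5, the mean difference was -16.7 (exact permutation p = 0.125).

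Genes that mark the region of origin were read beside this. *Hoxa2*, a hindbrain gene, was covered by H3K4me3 over 100% of its promoter in all 4 brainstem libraries, brainstem control 59 included, and over 0% to 52.5% in the telencephalon. *Emx2*, a cortical patterning gene, was covered by H3K27me3 over 100% of its promoter in all 4 brainstem libraries. H3K4me3 covered *Emx2* over 27.2% and 11.2% in brainstem controls 59 and 61, over 0% in both K27M brainstem libraries and over 66.9% to 93.7% in the telencephalon. Telencephalon K27M 60 had H3K27me3 over 100% of *Emx2* beside its H3K4me3, against 0% to 27% in the other telencephalon libraries. Whether cells of another region had a part in the *Pax3* values was not tested.

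The H3K4me3 peak at the *Pax3* promoter was broad in 3 brainstem libraries. The longest peak that reached the *Pax3* promoter windows measured 578 and 5729 bp in the brainstem controls and 11290 and 5551 bp in the K27M brainstem. Its −log10 p was 3.97 in brainstem control 59 and 108 in control 61. Upstream of the gene, an H3K4me3 peak with no annotated gene under it was called in all 10 libraries, at chr1:78203021-78204539 (-7.40 to -5.89 kb), with a fold enrichment of 2.71 to 54.8. Another at chr1:78215411-78218490 (-21.4 to -18.3 kb) was called in 8 libraries. The telencephalon libraries without H3K4me3 at the *Pax3* promoter thus still had an H3K4me3 peak upstream of it. The 300 bases at the centre of the peak found in all 10 libraries are shown as chr1:78203735-78204034 of GRCm38, plus strand, with CpG in capitals, since they carried H3K4me3 in every library and H3K27me3 in 7.
Pax3 upstream peak: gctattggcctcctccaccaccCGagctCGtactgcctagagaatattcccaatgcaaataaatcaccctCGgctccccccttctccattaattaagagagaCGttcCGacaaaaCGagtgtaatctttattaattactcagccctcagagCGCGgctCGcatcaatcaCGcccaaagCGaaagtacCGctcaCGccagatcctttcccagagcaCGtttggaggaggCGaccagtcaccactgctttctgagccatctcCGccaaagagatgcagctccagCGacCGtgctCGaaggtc
This stretch holds 19 CpG, a ratio of observed to expected CpG of 0.95.

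**Figure D4:**
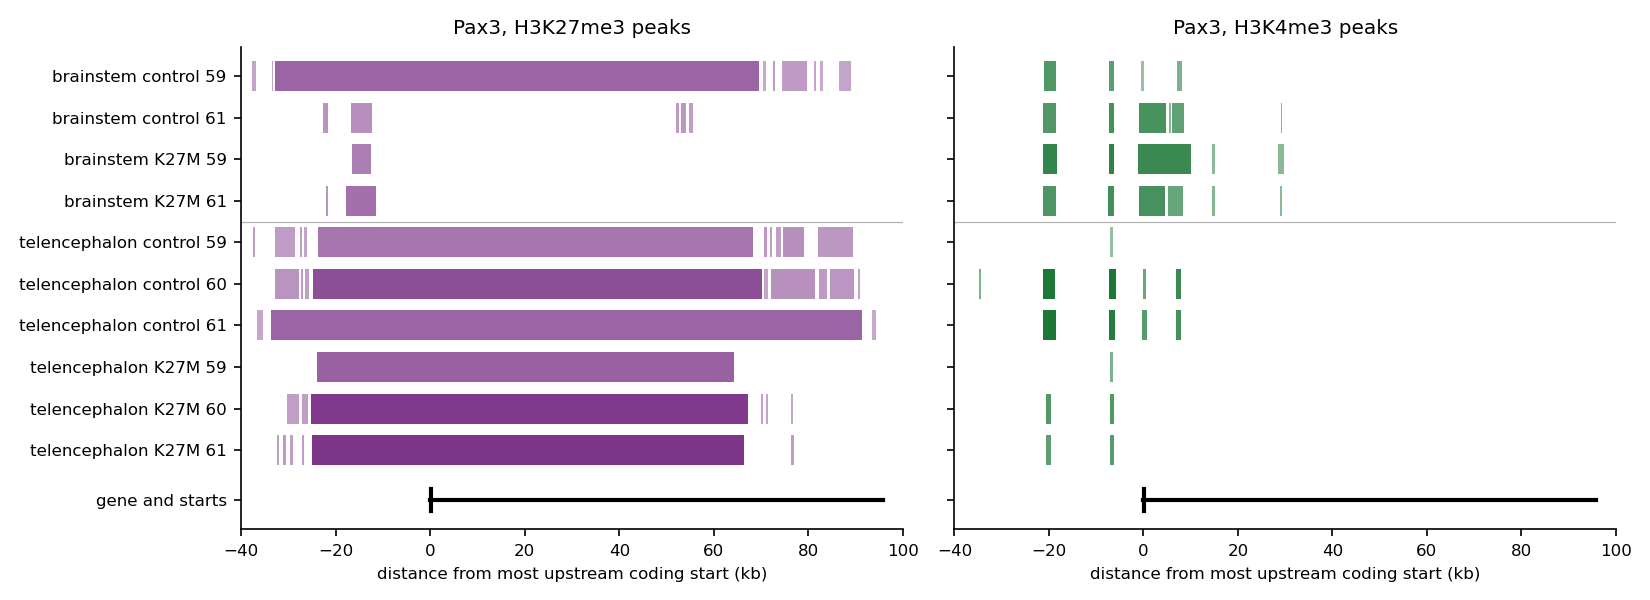
H3K27me3 and H3K4me3 peaks of each library around *Pax3*, as bars along the distance in kb from the most upstream coding start, darker for a higher fold enrichment. The broad H3K27me3 domain is present in the 6 telencephalon libraries and brainstem control 59, and the H3K4me3 peak about 6 kb upstream is present in all 10 libraries.

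*Pax6* (ENSMUSG00000027168.21, chr2:105668900-105697364, plus strand), a regulator of eye and cortical progenitors, differed from the other members in carrying both marks in every library. Its 26 transcripts begin at 24 positions, which form 10 clusters of starts separated by more than 1000 bp. H3K27me3 covered 27.1% and 9.39% of its promoter windows in the brainstem controls, 5.10% and 16.9% in the K27M brainstem, 18.0%, 64.8% and 35.4% in the telencephalon controls and 10.6%, 9.74% and 30.3% in telencephalon K27M. K27M was lower in 4 of 5 pairs (mean difference -16.4, SD 24.0, exact permutation p = 0.25). Without the telencephalon pair 60 the mean difference was -6.75 (exact permutation p = 0.5). H3K4me3 covered 16.4% and 19.7%, 27.3% and 15.1%, 7.61%, 21.7% and 18.7%, and 17.5%, 22.6% and 24.4% in the same groups and order, and was higher in K27M in 4 of 5 pairs (mean difference 4.59, SD 6.45, exact permutation p = 0.188), or 3.0 (exact permutation p = 0.375) without the brainstem pair 59.

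The marks lay mostly at different starts. H3K27me3 reached the first cluster of starts in all 10 libraries, where the group means were 81.0% (brainstem control), 68.8% (brainstem K27M), 93.8% (telencephalon control) and 74.5% (telencephalon K27M). From the fourth cluster onwards it was in no brainstem library. At the fourth cluster it was found in 2 of 3 telencephalon controls and 1 of 3 telencephalon K27M cultures. H3K4me3 had 3 peaks in all 10 libraries. The first lay at chr2:105668355-105670089, over the first start, with a fold enrichment of 2.2 to 17.2. The second, at chr2:105674577-105679238 (5.68 to 10.3 kb), was the strongest of the 3 in 8 of 10 libraries, with a fold enrichment of 12 and 14.3 in the brainstem controls, 19.8 and 10.2 in the K27M brainstem, 2.28, 59.6 and 48.5 in the telencephalon controls and 4.85, 26.8 and 20.2 in telencephalon K27M. The third lay inside the gene at chr2:105687654-105690086, with no annotated start, and was stronger than the second in telencephalon culture 59, at 7.19 in the control and 6.38 in K27M. Around the start of the fifth cluster, within the reach of the second peak, H3K4me3 covered 29.8% ± 6.11 (SD, n = 3) in the telencephalon controls and 65.9% ± 7.68 (SD, n = 3) in telencephalon K27M, and 48.8% ± 16.6 and 78.2% ± 23.6 (SD, n = 2 each) in brainstem control and K27M. This cluster was picked out after its values were seen and has no test.

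The 250 bases upstream of the first RefSeq start of *Pax6*, at chr2:105668646-105668895 of GRCm38 on the plus strand, are shown because both marks met there, H3K4me3 in 10 libraries and H3K27me3 in 8. CpG dinucleotides are in capitals.
Pax6 promoter: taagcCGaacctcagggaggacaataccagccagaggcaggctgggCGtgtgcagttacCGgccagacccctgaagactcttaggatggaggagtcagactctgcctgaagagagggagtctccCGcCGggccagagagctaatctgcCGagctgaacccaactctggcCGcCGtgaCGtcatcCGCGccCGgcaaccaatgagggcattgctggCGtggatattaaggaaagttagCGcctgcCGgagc
It holds 15 CpG, and 27.3% of RefSeq promoters hold at least as many.

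**Figure D5:**
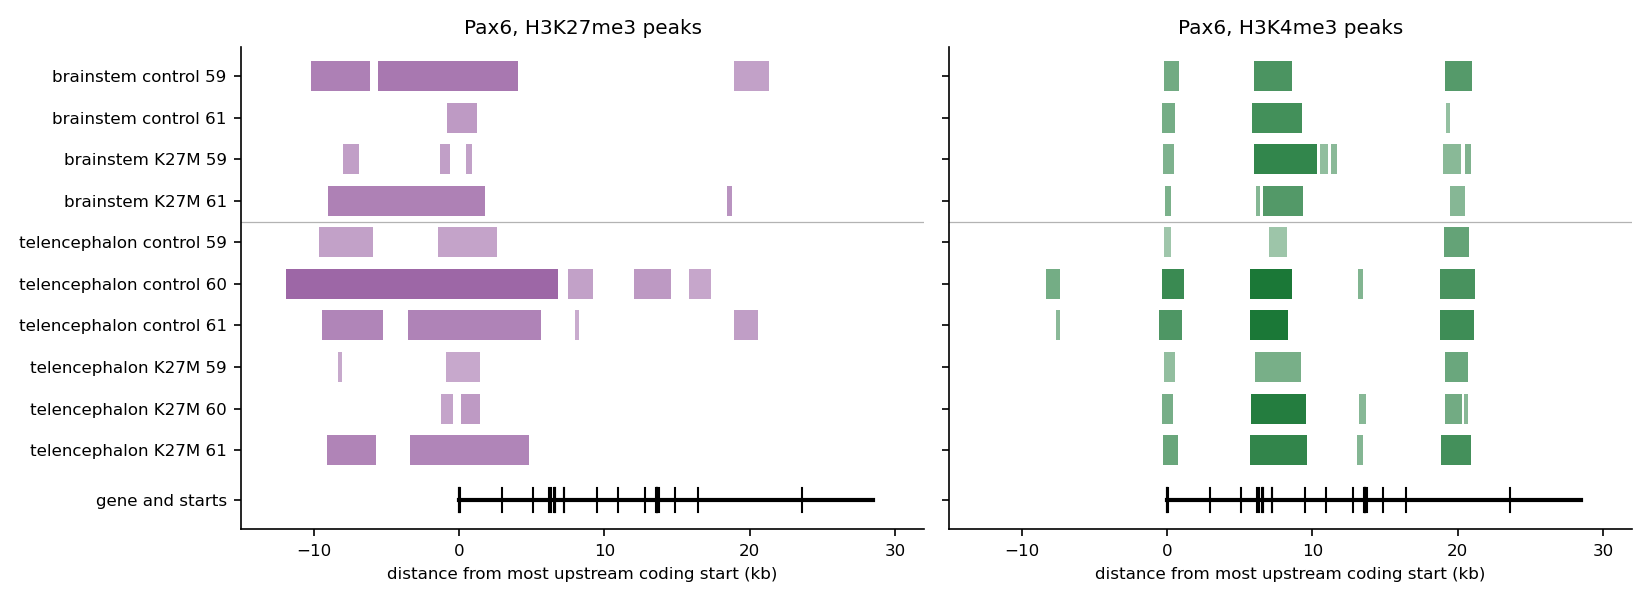
H3K27me3 and H3K4me3 peaks of each library across *Pax6*, as bars along the distance in kb from the most upstream coding start, darker for a higher fold enrichment, with the annotated starts as ticks. H3K4me3 peaks recur at the same 3 places in all 10 libraries, and H3K27me3 lies over the first starts and reaches the fourth cluster in 3 telencephalon libraries only.

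*Pax4* (ENSMUSG00000029706.15, chr6:28442334-28449353, minus strand), a factor of pancreatic beta cell development, had no H3K4me3 peak in its promoter windows in any library. H3K27me3 covered 100% and 73.9% of its promoter windows in the brainstem controls, 17.6% and 37.0% in the K27M brainstem, 41.5%, 84.8% and 100% in the telencephalon controls and 0%, 37.6% and 33.0% in telencephalon K27M. Every K27M value lay below every control value. The mean difference was -55.0 percentage points (SD 19.2, exact permutation p = 0.0625, lower in 5 of 5 pairs), and -63.2 with an equal number of peaks per library. Of the genes with an H3K27me3 promoter peak in any library, 12.7% were lower in K27M in 5 of 5 pairs, and *Pax4* was the only one of the 6 in this set. The median difference was -8.57 percentage points over all 8005 of these genes and -8.20 over the 6. The latter is the midpoint between *Pax6* (-16.4) and the 0 of *Pax7* and *Pax9*, and no member lay near it.

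The *Pax4* peaks were weak and short beside those of *Pax1*, *Pax9*, *Pax3* and *Pax7*. The strongest had a fold enrichment of 2.57 to 5.87. The longest measured 13184 and 8648 bp in the brainstem controls, 1906 and 3116 bp in the K27M brainstem, 4022, 9538 and 11446 bp in the telencephalon controls, and 3638 and 846 bp in telencephalon K27M 60 and 61, with none in telencephalon K27M 59. Every control was again above every K27M library. What K27M retained lay mainly at the starts farthest upstream, where coverage was 40.9% ± 9.98 (SD, n = 2) in brainstem K27M and 37.1% ± 36.3 (SD, n = 3) in telencephalon K27M, against 9.75% ± 13.8 and 9.54% ± 14.8 at the starts further in. Over the gene body, *Pax4* was lower in K27M in 5 of 5 pairs, by a mean of 41.6 percentage points (SD 27.6, exact permutation p = 0.0625). The mean difference was -18.0 (exact permutation p = 0.5) when the promoter windows were left out of the gene body.

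With *Pax1*, *Pax3* and *Pax7*, *Pax4* made 4 of 6 members with lower H3K27me3 gene body coverage in 5 of 5 pairs, which 18.5% of the 8596 genes with a gene body peak also showed. This share was computed after the values were seen. *Pax6* was lower in 4 of 5 pairs (mean difference -14.3, SD 16.7, exact permutation p = 0.125), and the mean difference was -8.02 (exact permutation p = 0.25) without the telencephalon pair 60. No member had more promoter H3K27me3 in K27M in 5 of 5 pairs, as 0.0999% of genes did. *Pax7* and *Pax9*, wholly covered in every control, could not rise. *Pax1* and *Pax3* could not rise in the pairs whose control was wholly covered. For H3K4me3, no member with a promoter peak was lower in K27M in 5 of 5 pairs (0.705% of genes) or higher in 5 of 5 (5.49%).

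Read as promoter states, the members differed between regions in the controls. A state rests here on a consensus of at least 2 cultures, so the brainstem needs 2 of 2 cultures and the telencephalon 2 of 3, which makes a mark easier to call in the telencephalon. In the brainstem controls 1 of 6 members, *Pax6*, was bivalent and the other 5 had H3K27me3 only, against 9.32% of protein-coding genes bivalent and 3.36% with H3K27me3 only. In the telencephalon controls 5 of 6 were bivalent and *Pax4* had H3K27me3 only, against 14.5% bivalent and 3.43% with H3K27me3 only. When a peak of each mark was required in every control culture of the region, this held for 2 members in the brainstem and 1 in the telencephalon, against 11.5% and 5.26% of protein-coding genes. Under the consensus, 1 member was bivalent in the telencephalon without control 60 (4.95% of protein-coding genes) or without control 61 (4.85%), and 5 without control 59 (14.4%). These shares were computed after the values were seen. Telencephalon controls 60 and 61, on which these bivalent calls rest, had the highest median fold enrichment of H3K4me3 peaks.

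Covered shares gave no regional order in the controls for promoter H3K27me3. None of the 6 had every brainstem control above every telencephalon control (2.31% of genes) or the reverse (0.612%). *Pax7* and *Pax9*, wholly covered in every control, could not show an order in this measure. For H3K4me3 too, none had every brainstem control above (16.4%) or every telencephalon control above (0.794%). *Pax3* in the brainstem controls was given H3K27me3 only by the consensus although control 61 had no promoter peak. The long domain of control 59 covered the promoter and overlapped shorter peaks of control 61 within the gene and upstream of it. Which of these peaks the consensus used was not examined. The H3K4me3 peak of control 59 did not reach the weak p-value threshold of the consensus.

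In K27M, *Pax1*, *Pax9*, *Pax7* and *Pax4* had H3K27me3 only in both regions, a state found at 2.36% of protein-coding genes in brainstem K27M and 1.69% in telencephalon K27M. *Pax3* had H3K4me3 only in the brainstem and H3K27me3 only in the telencephalon. *Pax6* stayed bivalent in the telencephalon, and in the brainstem its H3K27me3 was not kept by the consensus, which left H3K4me3 only. Among the midbrain-hindbrain genes, *Pax2* and *Pax5* were bivalent in both regions in controls and had H3K27me3 only in brainstem K27M. *Pax8* was bivalent only in the telencephalon controls and had H3K27me3 only in the other groups.

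Antisense genes overlap 3 of the members. The transcripts *AI646519* at *Pax1* and *Gm15524* at *Pax9* lay under the same H3K27me3 domain as their partner in all 10 libraries. *Pax6os1*, at the first *Pax6* start, shared an H3K27me3 peak with *Pax6* in all 10 libraries and an H3K4me3 peak in 8, so a promoter peak there cannot be assigned to either strand. The nearest protein-coding gene on each side of a member, and *Slc25a21*, which overlaps the end of *Pax9*, shared no promoter peak with it. The *Pax3* domain, for example, ended short of *Sgpp2*, which starts 113210 bp away.

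The genes whose 20 covered shares (both marks, 10 libraries each) lay closest to those of a member are named here for each, as a description. For *Pax1* they were the T-box genes *Tbx3* and *Tbx5* and the Hox gene *Hoxc6*, at a mean absolute difference of 1.04, 1.14 and 1.15 percentage points. For *Pax9* they were *Tbx20*, *Nkx2-9* and *Esx1* (1.01, 1.16 and 1.19), and for *Pax7* the genes *Hoxd11*, *Pitx1* and *Cdx2* (0.251, 0.313 and 0.381). *Pax3* had no close match, its nearest being *Zic4*, *5730596B20Rik* and *Hoxb2* at 12.7, 14.7 and 14.9 percentage points. *Pax6* was nearest to *Trim2*, *Cacna1g* and *Gpr153* (6.15, 6.27 and 6.32), and *Pax4* to the tissue genes *Krt19*, *Olfr222* and *Cd207* (3.82, 4.79 and 4.81).

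Genes that work with these Pax factors were counted by state in the controls, from brainstem to telencephalon. Of 12 genes of the Pax-Six-Eya-Dach network, 7 and then 8 were bivalent, with *Six3*, an eye and forebrain factor, as the gene that differed. Of 14 dorsoventral patterning factors that share borders with *Pax3*, *Pax6* or *Pax7*, 4 and then 9 were bivalent. Of 8 cortical neurogenesis genes linked to *Pax6*, 7 and then 6 were bivalent. Of 8 targets of *Pax3* and *Pax7* in muscle and neural crest, 2 and then 4 were bivalent. Of 8 partners of *Pax4* and *Pax6* in the endocrine pancreas, 1 and then 5 were bivalent. Of 7 partners of *Pax1* and *Pax9* in sclerotome and pharyngeal pouch, 4 and then 5 were bivalent. The same unequal number of cultures stands behind these counts. Over all protein-coding genes, 9.32% were bivalent in the brainstem controls and 14.5% in the telencephalon controls.

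Within these lists, few genes separated the regions by H3K27me3 cover in the controls. Every brainstem control lay above every telencephalon control at 2 network genes, 1 dorsoventral gene and 1 cortical gene, and the reverse held at 1 dorsoventral gene. Over all genes with an H3K27me3 promoter peak in any library, the shares were 2.31% and 0.612%. The dorsoventral gene with more in the telencephalon was *Irx3*, a homeobox gene of the neural tube, at a mean of 0% in the brainstem controls and 85.5% in the telencephalon controls. *Emx2* went the other way, at 100% and 9.0%. In the remaining 3 lists no gene separated the regions in either direction.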

How the data were processed

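The 20 H3K27me3 and H3K4me3 ChIP libraries were used, and the 20 inputs have no lists of their own. Per the submitters' processing notes the tools were bcl2fastq 2.20.0.422, cutadapt 3.4, Trim Galore 0.6.7, BWA 0.7.17-r1188, MACS2 2.2.7.1 and deepTools 3.5.4, on mm10. The authors called the peaks of each library relative to the matching input, broad for H3K27me3 and narrow for H3K4me3, without pooling cultures and without the Drosophila spike-in. Each peak of the deposited lists has a ratio to input (fold enrichment), p-value and q-value as −log10, and a score that was not used here. Depth is given as the number of peaks, because the lists hold no reads, so no interval for counting error could be given.

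Peaks were merged per library, and their overlap with promoter windows and gene bodies (GENCODE M21 on GRCm38, where the study's methods name M25) was computed in Python 3.11.15 with numpy 2.4.6, scipy 1.17.1 and pandas 2.3.3. A promoter had a mark with an overlap of at least 1 bp. The MSPC consensus of the study was rewritten with a stringent p of 1e-10 (H3K4me3) or 1e-08 (H3K27me3) and a weak p of 1e-06 or 1e-04. Differences under 2 percentage points were given no direction. The functions were tested on simulated data.

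Groups came from the sample labels. Deviations from group means correlated across genes within telencephalon cultures 59, 60 and 61 with r = 0.509, 0.319 and -0.139 for H3K27me3 and 0.701, 0.386 and 0.462 for H3K4me3, and within the brainstem with -0.0558 and 0.0253, where 2 cultures give a single value. The pairs were kept because the methods describe the cultures as matched. Separate cultures are the replicates, and each p-value ranks the observed difference among rearrangements of their labels. The tests did not account for a litter shared by cultures of the same number in both regions.

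All 6 genes, the other Pax genes, overlapping and nearest genes, the 3 most alike genes and up to 4 examples of each list were to be named. The genes and lists were chosen with earlier results of these data known. Promoter sequences came from the RefSeq table on GRCm38.p6, which matched 4 of the 6 genes. The entries of *Pax7* and a further *Pax6* entry overlap exons and were not printed. Alternatives were stricter peaks, equal numbers of peaks, other promoter windows and transcripts, gene bodies without promoters, unmatched cultures, and each culture left out in turn.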

Additional observations from a re-analysis of the deposited data

How the results depend on the processing

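Of 552 values of members under an alternative, 537 were not reversed and stayed on their side of the threshold of 0.05. Only the setting without the replicate block could pass that threshold, so elsewhere the side was fixed by the design. A difference under 2 percentage points, in the main fit or under the alternative, could not count as reversed. The 537 therefore do not measure how stable the differences were. Without the replicate block, that is with genotypes permuted within each region and not within pairs, 4 exact permutation p-values fell under it at the same differences: *Pax4* promoter H3K27me3 (-55.0 percentage points, p = 0.0167) and gene body H3K27me3 of *Pax1* (-26.7, p = 0.0167), *Pax3* (-29.9, p = 0.0167) and *Pax4* (-41.6, p = 0.0333). The smallest p this exact permutation test can give is 0.0167. It sets the matching of cultures aside, and its p-values were not adjusted over the genes and measures tested. Pairing the regions by cultures 59 and 61 reversed none of the regional differences. With 1 library left out, these telencephalon minus brainstem differences reversed: *Pax4* promoter H3K27me3 in controls (-24.6 to 5.42, main value -11.6) and in K27M (-13.5 to 8.00, main value -3.76), *Pax9* H3K4me3 in controls (-7.86 to 19.7), *Pax6* H3K4me3 in controls (-4.89 to 2.15), and gene body H3K27me3 in controls of *Pax7* (-13.9 to 23.3) and *Pax4* (-37.7 to 7.24). The values that turned were 5.42 for *Pax4* without telencephalon 59, 5.97 and 8.00 for *Pax4* in K27M without brainstem 61 and without telencephalon 59, -7.86 and -3.59 for *Pax9* without brainstem 61 and without telencephalon 61, 2.15 for *Pax6* without telencephalon 59, -13.9 and -4.55 for *Pax7* without brainstem 61 and without telencephalon 61, and 7.24 for *Pax4* without brainstem 59. The *Pax4* difference in K27M was 11.4 with promoter windows of 500 bp on each side, and the *Pax6* gene body difference in controls was -7.94 without its promoter windows. The cause was not tested. With an equal number of peaks the number of bivalent members was 0 in the brainstem controls. It was 2 and 1 in brainstem and telencephalon with a peak required in every control, and ran from 1 to 5 in the telencephalon with 1 culture left out. No value can tell an absent mark from one below the caller's threshold.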
